A study of Mus musculus with 10 samples.

Results

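The genes that carry pyruvate into the mitochondrion and through the tricarboxylic acid (TCA) cycle, and that return malate, aspartate and citrate to the cytosol, were followed in mouse lung tumours with and without the glucose transporter Glut1 (gene Slc2a1). They are the 40 rows of the joint count table whose gene symbol matches a fixed list of 40 names, out of 39017 rows in all. Each of the 40 passed the filter on low counts, which left 16216 genes for testing, and their counts lay between 203 and 28003 reads per library. The 10 libraries were 5 KP and 5 KPG1. Both groups were males of strain C57BL/6 that carried the same tumour-starting alleles and received Ad5SPC-Cre, an adenovirus that makes Cre recombinase from the surfactant protein C promoter, into the trachea. KPG1 mice were homozygous fl/fl for Glut1, so that the Cre that starts a tumour also targets the transporter gene in those cells. KP mice were the labelled controls, for which one label gives heterozygous fl/wt and another wild type. Tumours were cut out 18 weeks and 6 days after initiation and depleted of CD45-positive leukocytes, and polyadenylated RNA of the remaining cells was sequenced. The labels do not say whether each library came from a separate animal, so p-values measure the spread between these libraries.

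As background, glycolysis ends in pyruvate, which enters the mitochondrion through a carrier made of Mpc1 and Mpc2. The pyruvate dehydrogenase complex turns it into acetyl-CoA, 4 kinases (Pdk1 to Pdk4) switch the complex off by phosphorylation, and the phosphatases Pdp1 and Pdp2 switch it on again. The TCA cycle oxidises the acetyl group and supplies electrons to respiration, while citrate that leaves the mitochondrion is split by ATP citrate lyase to make cytosolic acetyl-CoA for lipid synthesis. The malate-aspartate shuttle moves the reducing power of cytosolic NADH, which glycolysis produces, across the inner membrane.

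Slc2a1 was examined first. It lay at 6.30, 6.99, 6.95, 6.76 and 6.16 log2 CPM (counts scaled to the same library size) in KP 1 to KP 5 and at 5.57, 6.06, 5.35, 5.68 and 5.47 in KPG1 1 to KPG1 5. The groups did not overlap and the difference in means was -1.01 (two-sided exact permutation p 0.00794, the smallest that 252 rearrangements can give). Over all genes its limma-voom adjusted p was 0.0675, outside the threshold of 0.05. Libraries held 32427029 to 49534284 counts. The tissue label was checked against surfactant genes of the alveolar type 2 cell, and Sftpc lay at 12.39 to 15.29 and Sftpb at 12.97 to 14.59 log2 CPM. All 10 alveolar type 2 markers had a higher fitted value in KPG1, 4 of them with an unadjusted p under 0.05, and their summed level was 20607 to 60117 CPM in KP and 51614 to 86902 CPM in KPG1. Of 14 leukocyte markers 13 were in the count table and 9 could be tested. The summed level of the 13 was 52.7 to 107 CPM in KP and 40.5 to 73.0 CPM in KPG1, with Cd3e and Nkg7 at 0 in at least 1 library. Of the 9 tested, 3 were fitted higher, 0 of them with an unadjusted p under 0.05, while 3 of the lower ones had such a p. Of 6 general epithelial markers 4 were fitted lower, 3 of them with an unadjusted p under 0.05, and their summed level was 3950 to 6222 CPM in KP and 3633 to 4002 CPM in KPG1. Krt18, a keratin of simple epithelia, had a log2 fold change of -0.87 (SE 0.15, adjusted p 0.0501), with no overlap between the groups. Of the endothelial markers all 8 were fitted higher in KPG1 and 0 had an unadjusted p under 0.05, with a summed level of 282 to 813 CPM in KP and 432 to 1165 CPM in KPG1, the last in KPG1 1. The 8 fibroblast markers, of which 2 had an unadjusted p under 0.05, were also all fitted higher and summed to 137 to 360 CPM in KP and 212 to 392 CPM in KPG1. None of the markers in these 5 lists passed an adjusted p of 0.05, nor did any tested mesothelial, club, ciliated or erythroid marker. Of 4 club markers 1 was fitted higher, with an unadjusted p under 0.05. They summed to 77.4 to 197 CPM in KP and 146 to 336 CPM in KPG1. Both of the 2 mesothelial markers tested were fitted lower, without such a p. Among 5 ciliated markers 3 were fitted higher, and 1 of the lower ones had such a p. Of all genes tested, 5.26% were higher and 6.31% lower with an unadjusted p under 0.05. The part of these cell types in the values below was not tested, and in bulk RNA fewer cells of a type and less RNA per cell cannot be told apart.

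Of the 40 genes, 0 passed an adjusted p of 0.05 in the limma-voom fit between KPG1 and KP, where 0.173% of all genes tested did. The edgeR quasi-likelihood test, which called 0.247% of all genes, and DESeq2, which called 3.36%, also called 0 of the 40. An unadjusted p under 0.05 was found for 1 gene, Mpc2, which was higher in KPG1. That is 2.50% of the list against 11.6% of all genes tested. Those with such a p that were higher in KPG1 made up 5.26% of all genes tested. Mpc2 was also the 1 gene of the list whose groups did not overlap, again 2.50% against 2.81% of all genes. Of the list, 24 genes had a higher and 16 a lower fitted value in KPG1. Their median log2 fold change came to 0.028, against 0.021 over all genes tested. Together the 40 genes took 0.479% ± 0.027 of the counts of a KP library and 0.496% ± 0.015 of those of a KPG1 library (SD, n = 5 each).

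The precision was enough to bound most of these differences. The median standard error of the log2 fold change was 0.15 for the list and 0.22 for all genes tested. For 37 of the 40 genes the 95% interval lay within a 2-fold change in either direction, which held for 67.2% of all genes, and for 31 it lay within 1.5-fold, which held for 36.6% of all genes. The list is more highly expressed than the average tested gene, with a median level of 6.34 against 4.32 log2 CPM. The exceptions to the 2-fold bound were Pdk4, Pcx and Got1. Mpc1, Mpc2, Me2, Idh1, Sucla2 and Acly exceeded the 1.5-fold bound only.

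**Figure D1:**
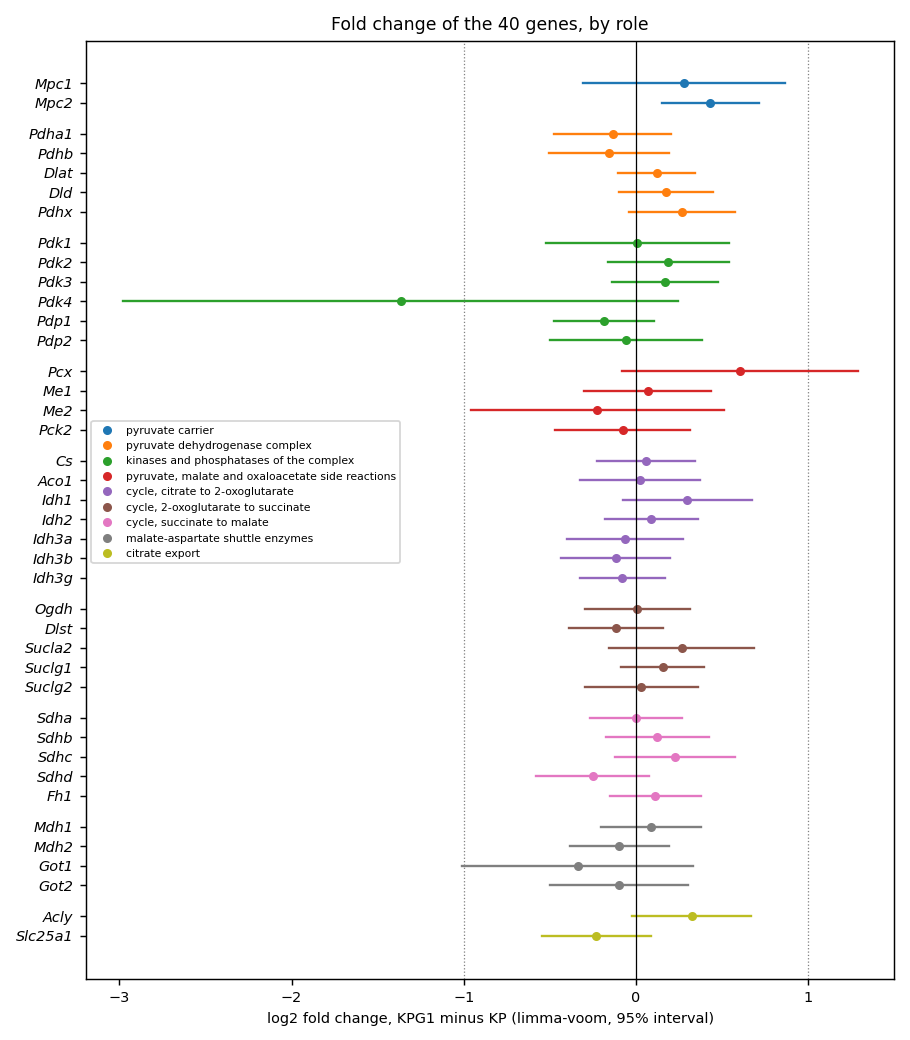
Log2 fold change between KPG1 and KP for each of the 40 genes (points) with its 95% interval from limma-voom (lines), 5 libraries per group. Colours mark the role of the gene, and dotted lines mark a 2-fold change. The interval of Mpc2 is the one interval that leaves out 0, and that of Pdk4 is the widest.

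Mpc2 and Mpc1 form the mitochondrial pyruvate carrier, and both subunits are needed for transport. Mpc2 lay at 4.67, 4.80, 4.82, 4.60 and 4.71 log2 CPM in KP 1 to KP 5 and at 5.44, 5.31, 5.08, 4.98 and 4.93 in KPG1 1 to KPG1 5. Every KPG1 library thus lay above every KP library. The log2 fold change was 0.43 (SE 0.13, 95% interval 0.15 to 0.72), which is 1.35-fold, with an unadjusted p of 0.00615 and a limma adjusted p of 0.239. The highest value was that of KPG1 1, in which the summed endothelial and alveolar type 2 markers were also highest. Without KPG1 1 the log2 fold change was 0.34. Mpc1 ranged more widely, from 3.32 to 4.37 log2 CPM in KP and from 3.59 to 4.74 in KPG1, and its groups overlapped. Its log2 fold change was 0.28 (SE 0.27, adjusted p 0.721). The lowest Mpc1 value was that of KP 1 and the highest that of KPG1 1. A processed pseudogene, Mpc1-ps, is identical to Mpc1 over 261 bases and had 136 to 580 counts against a median of 608 for Mpc1, so the split of reads between these 2 genes is uncertain. Mpc1-ps had a log2 fold change of 0.49 (SE 0.34, adjusted p 0.612).

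The sequences upstream of Dlat and Pdk4 are shown, since these 2 genes had the smallest and the largest spread between tumours within the list. The pooled within-group SD was 0.10 log2 units for Dlat and 1.32 for Pdk4, at percentiles 0.672 and 96.9 of all genes tested. The sequences come from the 250 bases before the RefSeq start in build GRCm38.p6, without the bases that GENCODE M21 counts as part of the gene, and are read 5′ to 3′ on the strand of the gene, with CpG dinucleotides in capitals. They cover chr9:50659781-50660030 (250 bases) for Dlat and chr6:5496310-5496528 (219 bases) for Pdk4, both on the minus strand.
Dlat: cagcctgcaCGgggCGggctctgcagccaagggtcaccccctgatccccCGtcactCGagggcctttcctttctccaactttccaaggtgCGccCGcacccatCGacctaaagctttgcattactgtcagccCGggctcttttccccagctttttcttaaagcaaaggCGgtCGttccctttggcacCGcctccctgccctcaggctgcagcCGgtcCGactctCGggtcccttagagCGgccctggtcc
Pdk4: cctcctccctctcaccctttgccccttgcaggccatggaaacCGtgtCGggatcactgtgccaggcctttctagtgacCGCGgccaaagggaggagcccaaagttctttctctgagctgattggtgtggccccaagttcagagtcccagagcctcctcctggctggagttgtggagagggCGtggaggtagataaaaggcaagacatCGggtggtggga
The first holds 15 and the second 6 CpG dinucleotides. Over the 36 list genes with a RefSeq window of 250 bases, the Spearman correlation across genes between the CpG number (the window with the most, where a gene has several) and the SD was -0.11, and without Pdk4 it was -0.033. Over 10949 tested genes with a window it was -0.27. The genes share the same 10 libraries and differ in level, so these values are descriptions. For some genes, among them Mpc2, GENCODE M21 places a start further upstream, so that the RefSeq window lies inside the annotated gene. In these windows 4 motifs were searched on both strands. The hypoxia response core ACGTG was in 17 of the 47 windows of the list (36.2%) and in 16.6% of 32851 windows of all genes. Windows of the list are richer in CpG, with a median of 17 against 6, and this core contains a CpG. The half-site AAGGTCA of oestrogen-related receptors was in 1 window of the list, that of Got1 (2.13%), and in 4.08% of all windows. The forkhead site TGTTTAC was in 0 of the 47 windows and in 3.17% of all windows, and the full palindromic NRF1 site, which also contains CpG, in 0 and in 0.782%. None of the 4 motifs was in the 2 sequences printed above.

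The 5 subunits of the pyruvate dehydrogenase complex did not change together, with log2 fold changes between -0.15 and 0.27 and 3 of 5 above 0. Pdhx, which anchors the E3 subunit, lay at 4.24, 4.54, 4.27, 4.43 and 4.52 log2 CPM in KP 1 to KP 5 and at 4.48, 4.87, 4.91, 4.69 and 4.39 in KPG1 1 to KPG1 5. The groups overlapped through KPG1 1 and KPG1 5, and the log2 fold change was 0.27 (SE 0.14, adjusted p 0.493). Dld, the E3 dehydrogenase that this complex shares with the 2-oxoglutarate dehydrogenase complex, lay at 6.45, 6.26, 6.05, 6.28 and 6.61 in KP and at 6.31, 6.52, 6.57, 6.55 and 6.56 in KPG1, with a log2 fold change of 0.18 (SE 0.12, adjusted p 0.619). KP 5 had the highest Dld value of all libraries and KP 3 the lowest. Dlat, the E2 core, varied least of all 40 genes, between 5.44 and 5.78 over the 10 libraries. Pdha1 and Pdhb encode the chains of E1, the subunit that the kinases phosphorylate. Their log2 fold changes were -0.13 (SE 0.15) and -0.15 (SE 0.16), with adjusted p-values of 0.781 and 0.747. Pdha1 shares 603 exonic bases with Map3k15 on the opposite strand, which had at most 436 counts. A processed pseudogene, Gm6123, is 97.0% identical to Pdhb over 1079 bases and has no count value, so the Pdhb count is uncertain.

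**Figure D2:**
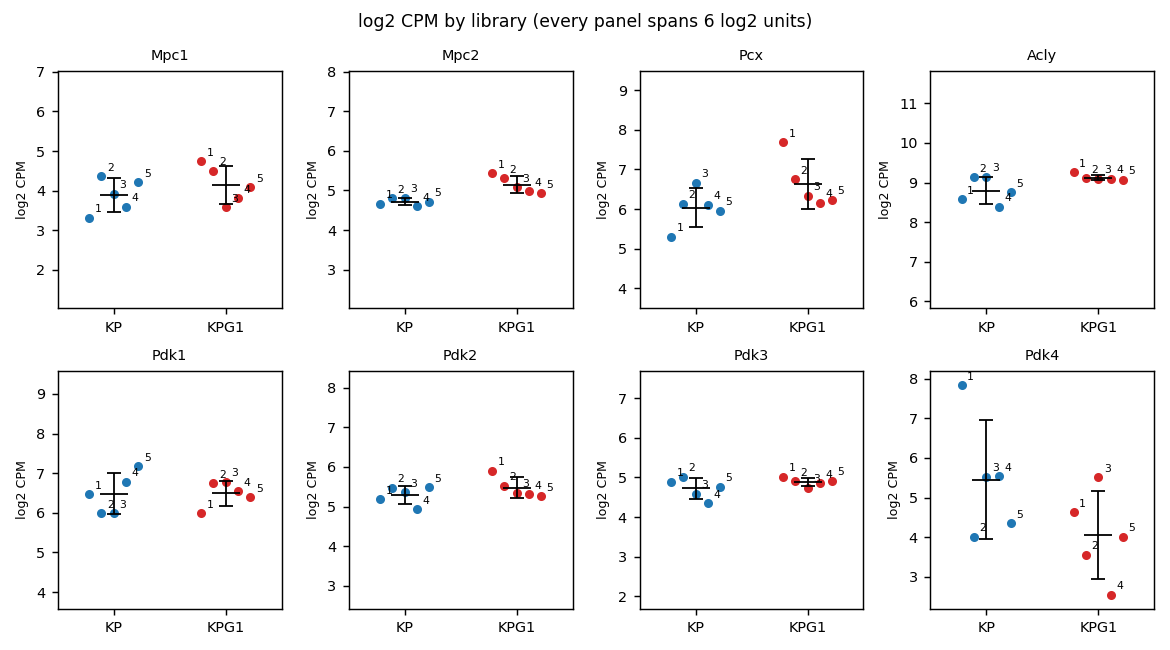
Log2 CPM of 8 genes in each library, KP in blue and KPG1 in red, with the replicate number beside each point and the mean ± SD of 5 libraries in black. Every panel spans 6 log2 units, so that the spread of Pdk4, from 2.55 to 7.84, can be read against the narrow ranges of Mpc2 and Pdk3.

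Among the kinases, Pdk4 had the widest spread, and its log2 fold change was also the largest in size of the list. With that spread the fit cannot tell whether the groups differ. It lay at 7.84, 4.01, 5.52, 5.54 and 4.35 log2 CPM in KP 1 to KP 5 and at 4.63, 3.56, 5.52, 2.55 and 4.02 in KPG1 1 to KPG1 5. The libraries spanned 39.2-fold, from KPG1 4 to KP 1, and the groups overlapped between 4.01 and 5.52, where 5 of the 10 libraries lay. The log2 fold change was -1.37 (SE 0.74, 95% interval -2.98 to 0.25, unadjusted p 0.0895, adjusted p 0.505), and the unadjusted p was under 0.05 with edgeR and with DESeq2. Without KP 1 it was -0.77. KP 1 was also the library with the lowest summed alveolar type 2 markers, and whether this had a part in its Pdk4 level was not tested. Pdk4 is the kinase known to rise in fasting and with fatty acid use.

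Pdk1, a known target of the hypoxia factor Hif1a, lay at 6.47, 6.00, 5.99, 6.79 and 7.17 log2 CPM in KP 1 to KP 5 and at 5.99, 6.74, 6.78, 6.55 and 6.40 in KPG1 1 to KPG1 5. The KPG1 values fell within or at the edge of the KP range, and the log2 fold change was 0.0089 (SE 0.24, 95% interval -0.52 to 0.54). Its direction was not stable, and it was below 0 with size factors other than TMM, under DESeq2 and under edgeR. Pdk2, which is expressed in most tissues, lay at 5.18, 5.48, 5.36, 4.93 and 5.49 in KP and at 5.91, 5.52, 5.35, 5.30 and 5.26 in KPG1 (log2 fold change 0.19, SE 0.16), and without KPG1 1 the difference was 0.062. Pdk3 lay at 4.89, 5.02, 4.58, 4.35 and 4.77 in KP and at 5.02, 4.90, 4.74, 4.86 and 4.92 in KPG1 (log2 fold change 0.17, SE 0.14). The adjusted p was 0.993 for Pdk1, 0.682 for Pdk2 and 0.671 for Pdk3. The opposing phosphatases Pdp1 and Pdp2 had log2 fold changes of -0.19 (SE 0.13) and -0.056 (SE 0.20), with adjusted p-values of 0.622 and 0.938.

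Pyruvate carboxylase, malic enzyme and the mitochondrial phosphoenolpyruvate carboxykinase link pyruvate and the cycle outside the dehydrogenase. Pcx, the carboxylase that refills oxaloacetate, lay at 5.30, 6.14, 6.67, 6.11 and 5.96 log2 CPM in KP 1 to KP 5 and at 7.69, 6.76, 6.34, 6.16 and 6.24 in KPG1 1 to KPG1 5. The lowest value was that of KP 1 and the highest that of KPG1 1, while KP 3 lay above 3 of the KPG1 libraries. The log2 fold change was 0.60 (SE 0.31, 95% interval -0.08 to 1.29, adjusted p 0.489), the highest of the list. Without KPG1 1 it was 0.33, and without both KP 1 and KPG1 1, a choice made after the values were seen, it was 0.16. KPG1 1 was the library with the highest summed endothelial and fibroblast markers. Me2, a mitochondrial malic enzyme, spanned 3.81 to 5.80 in KP and 4.22 to 4.93 in KPG1 (log2 fold change -0.22, SE 0.34). Me1, the cytosolic malic enzyme that makes NADPH, and Pck2 had log2 fold changes of 0.069 (SE 0.17) and -0.075 (SE 0.18). Adjusted p-values of these 3 genes were between 0.839 and 0.905.

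In the first limb of the cycle, from citrate to 2-oxoglutarate, the 7 genes had log2 fold changes between -0.12 and 0.30, of which 4 were above 0. Idh1, the cytosolic NADP-dependent isocitrate dehydrogenase, lay at 8.41, 7.89, 8.06, 7.92 and 7.69 log2 CPM in KP 1 to KP 5 and at 7.81, 8.41, 8.26, 8.45 and 8.53 in KPG1 1 to KPG1 5. In each group 1 library lay against the rest, KP 1 high and KPG1 1 low. The log2 fold change was 0.30 (SE 0.17, adjusted p 0.529), and it was 0.21 to 0.40 when 1 library was left out. Without these 2 libraries it was 0.52 with an adjusted p of 0.207. That omission was chosen after the values were seen and was bound to widen the difference, so no conclusion is drawn from it. Idh2, its mitochondrial counterpart, lay at 7.12, 7.37, 7.11, 7.34 and 7.52 in KP and at 7.32, 7.61, 7.34, 7.21 and 7.43 in KPG1 (log2 fold change 0.091, SE 0.12, adjusted p 0.818). Citrate synthase (Cs) had a log2 fold change of 0.058 (SE 0.13) and Aco1, the cytosolic aconitase and iron regulatory protein, 0.025 (SE 0.16). The 3 subunits of the NAD-dependent isocitrate dehydrogenase, Idh3a, Idh3b and Idh3g, were fitted lower by -0.061, -0.12 and -0.078, with adjusted p-values between 0.796 and 0.908.

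Between 2-oxoglutarate and succinate the 5 log2 fold changes lay between -0.12 and 0.27, with adjusted p-values of at least 0.620. Succinyl-CoA synthetase joins the alpha subunit Suclg1 with a beta subunit that makes either ATP (Sucla2) or GTP (Suclg2). Sucla2 lay at 5.80, 5.70, 5.82, 5.45 and 6.56 log2 CPM in KP 1 to KP 5 and at 6.11, 5.95, 5.96, 6.42 and 6.24 in KPG1 1 to KPG1 5. KP 5 was above every KPG1 library and the other 4 KP libraries were below all of them. The log2 fold change was 0.27 (SE 0.19, adjusted p 0.625), without KP 5 it was 0.43 (adjusted p 0.124), and without KP 4 it was 0.16. Suclg2 lay at 6.23, 6.12, 6.17, 6.50 and 6.65 in KP and at 6.14, 6.28, 6.24, 6.45 and 6.73 in KPG1, with a log2 fold change of 0.031 (SE 0.15), and its direction changed without KP 2, KP 3 or KPG1 5. A pseudogene 98.9% identical to it, Gm15163, had 807 to 1607 counts, so the Suclg2 count is uncertain. Suclg1 had a log2 fold change of 0.16 (SE 0.11). Ogdh and Dlst, the E1 and E2 subunits of the 2-oxoglutarate dehydrogenase complex, had 0.0087 (SE 0.14) and -0.12 (SE 0.12).

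The 4 subunits of succinate dehydrogenase, which is also complex II of the respiratory chain, did not share a direction. Sdhd, a membrane anchor, lay at 6.62, 6.26, 6.49, 6.88 and 7.05 log2 CPM in KP 1 to KP 5 and at 6.25, 6.39, 6.41, 6.54 and 6.45 in KPG1 1 to KPG1 5. Its log2 fold change was -0.25 (SE 0.15, adjusted p 0.547), and KP 1, KP 4 and KP 5 lay above every KPG1 library. Sdhc, the other membrane anchor, lay at 6.13, 5.95, 6.50, 6.26 and 6.11 in KP and at 6.90, 6.28, 6.40, 6.37 and 6.14 in KPG1. Its log2 fold change was 0.23 (SE 0.16, adjusted p 0.615), with the highest value in KPG1 1, and without that library it was 0.091. Sdha, the flavoprotein, had 0.0033 (SE 0.12), Sdhb, the iron-sulphur protein, 0.13 (SE 0.14) and fumarase (Fh1) 0.11 (SE 0.12), with adjusted p-values between 0.756 and 0.995.

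**Figure D3:**
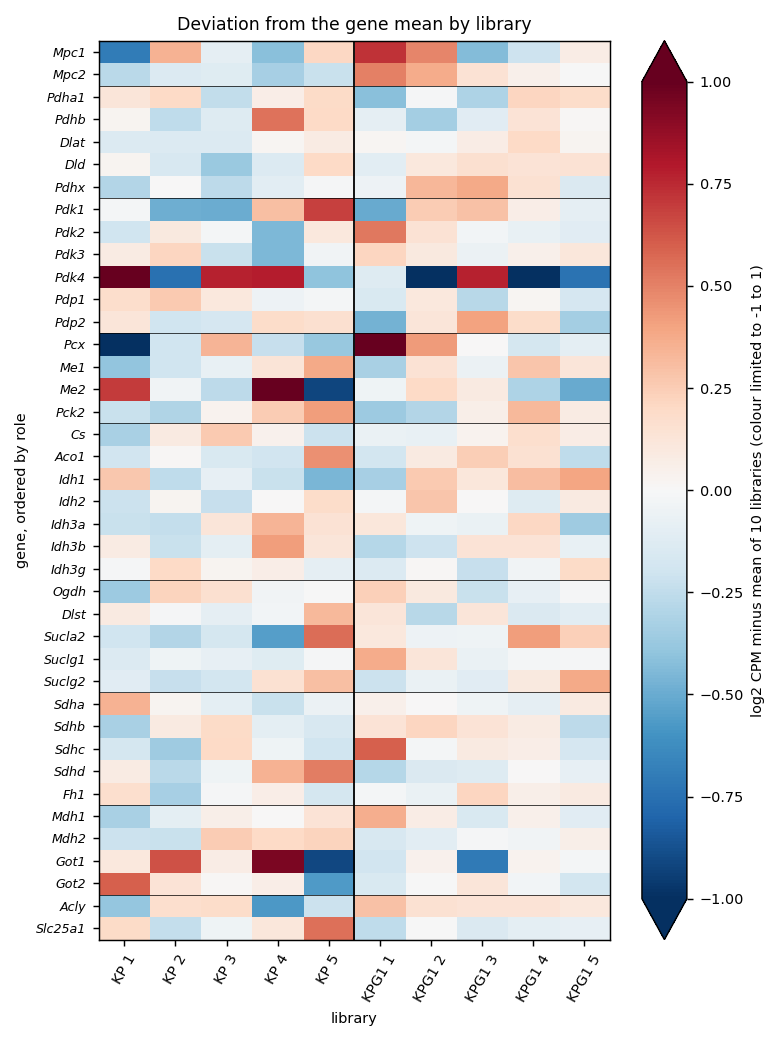
Deviation of each gene's log2 CPM from its mean over the 10 libraries, with the 40 genes in rows by role (thin lines part the roles) and libraries in columns (a thick line parts KP from KPG1). Colours are limited to 1 log2 unit either way. KP 5 and KPG1 1 each hold the highest value of 9 genes and KP 1 the lowest of 9, and Mpc2 is the row whose groups do not overlap.

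The malate-aspartate shuttle runs through a cytosolic and a mitochondrial form each of malate dehydrogenase (Mdh1, Mdh2) and of aspartate aminotransferase (Got1, Got2). Mdh1 lay at 6.91, 7.13, 7.29, 7.23 and 7.36 log2 CPM in KP 1 to KP 5 and at 7.60, 7.30, 7.08, 7.28 and 7.11 in KPG1 1 to KPG1 5, and Mdh2 at 7.42, 7.41, 7.88, 7.83 and 7.86 in KP and 7.47, 7.53, 7.62, 7.60 and 7.69 in KPG1. The log2 fold changes were 0.090 (SE 0.13) and -0.096 (SE 0.13). The groups overlapped in both, and the KPG1 libraries lay closer together than the KP libraries for Mdh2. Got1 lay at 5.74, 6.28, 5.71, 6.58 and 4.73 in KP and at 5.45, 5.68, 4.93, 5.67 and 5.62 in KPG1. Its log2 fold change was -0.34 (SE 0.31, adjusted p 0.707), with KP 5 lowest and KP 4 highest of all libraries, and it was -0.63 without KP 5 (adjusted p 0.168) and -0.14 without KP 4. Got2 lay at 7.95, 7.49, 7.37, 7.42 and 6.79 in KP and at 7.20, 7.35, 7.47, 7.33 and 7.17 in KPG1 (log2 fold change -0.098, SE 0.18, adjusted p 0.872), and without KP 1 it was 0.040. The Got2 count is uncertain, since the pseudogene Got2-ps1 is 99.1% identical over 1293 bases and had 679 to 1480 counts. Got2-ps1 had a log2 fold change of -0.053 (SE 0.20).

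For citrate export, Slc25a1, the mitochondrial citrate carrier, and Acly, the lyase, were fitted in opposite directions. Acly lay at 8.58, 9.13, 9.15, 8.39 and 8.75 log2 CPM in KP 1 to KP 5 and at 9.26, 9.11, 9.10, 9.10 and 9.07 in KPG1 1 to KPG1 5. KP 2 and KP 3 lay within the KPG1 range and the other 3 KP libraries below it. The log2 fold change was 0.33 (SE 0.16, 95% interval -0.02 to 0.67, adjusted p 0.460). Slc25a1 lay at 6.46, 6.03, 6.23, 6.38 and 6.82 in KP and at 6.01, 6.27, 6.13, 6.17 and 6.19 in KPG1 (log2 fold change -0.23, SE 0.14, adjusted p 0.566). In both genes the KPG1 libraries were closer to each other than the KP libraries, with an SD of 0.075 against 0.34 for Acly and 0.093 against 0.30 for Slc25a1.

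That narrower spread was seen over much of the list and of the genome. The SD was larger in KP than in KPG1 for 25 of the 40 genes (62.5%) and for 73.5% of all genes tested. The median SD was 0.24 log2 units in KP and 0.19 in KPG1 for the list, and 0.39 and 0.26 for all genes. Extreme values were unevenly spread over libraries, both for the list and for all genes tested, but not with the same shares. KP 5 held the highest value of 9 of the 40 genes, and 22.2% of the highest values of all genes. KPG1 1 held the highest value of another 9 and the lowest of 7, against 11.2% and 12.5% over all genes. KP 1 held the lowest value of 9 genes, against 16.7%, and the highest of 3, against 15.3%. KP 5 held the lowest value of 4, against 20.2%.

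**Figure D4:**
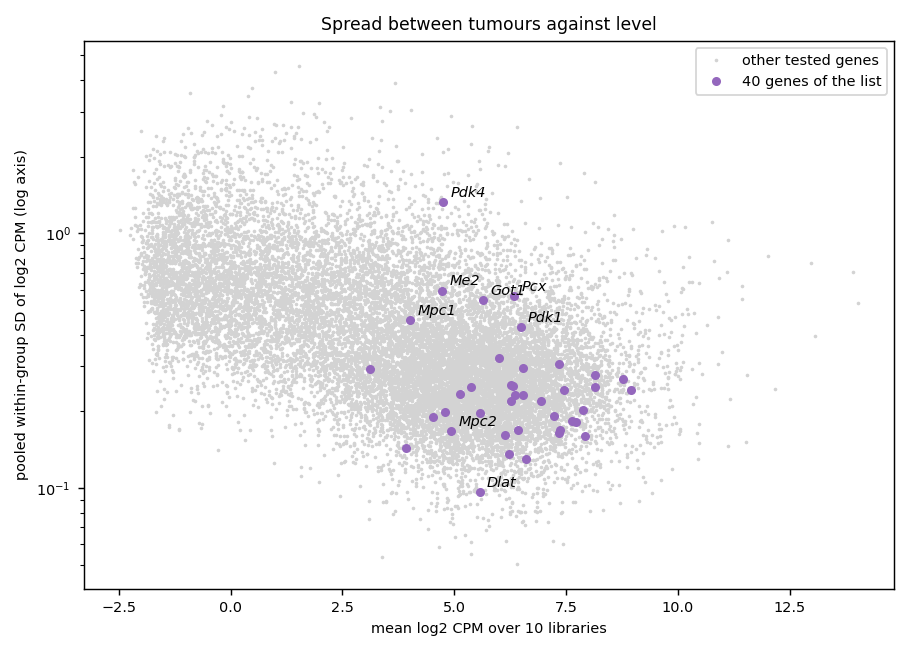
Pooled within-group SD of log2 CPM (log axis) against mean log2 CPM over 10 libraries for all tested genes (grey) and the 40 genes of the list (purple). Within the list Dlat lies lowest, at 0.10, and Pdk4 highest, at 1.32.

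The balance between genes with a related role was compared within each library, which removes the scaling of the library. For 5 pairs the difference in log2 CPM was tested between groups by a two-sided exact permutation test, with p-values adjusted over the 5 by Benjamini-Hochberg. Pdk1 minus Pdk4 was -1.38, 1.99, 0.47, 1.25 and 2.83 in KP 1 to KP 5 and 1.36, 3.18, 1.26, 4.00 and 2.38 in KPG1 1 to KPG1 5. KP libraries averaged 1.03 ± 1.60 and KPG1 libraries 2.44 ± 1.18 (SD, n = 5 each), with KP 1 the one library below 0 (exact permutation p 0.151, adjusted p 0.423). Idh1 minus Idh2 averaged 0.70 ± 0.43 in KP and 0.91 ± 0.29 in KPG1 (SD, n = 5, exact permutation p 0.405). Mdh1 minus Mdh2 averaged -0.49 ± 0.13 in KP and -0.31 ± 0.28 in KPG1 (SD, n = 5, exact permutation p 0.254), and KPG1 1 was the one library above 0, at 0.12. Got1 minus Got2 averaged -1.59 ± 0.57 and -1.83 ± 0.40 (SD, n = 5, exact permutation p 0.484), and Sucla2 minus Suclg2 averaged -0.47 ± 0.35 and -0.23 ± 0.20 (SD, n = 5, exact permutation p 0.206). Adjusted p-values of these 4 pairs lay between 0.423 and 0.484, and none of the 5 differences exceeded the spread between libraries.

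**Figure D5:**
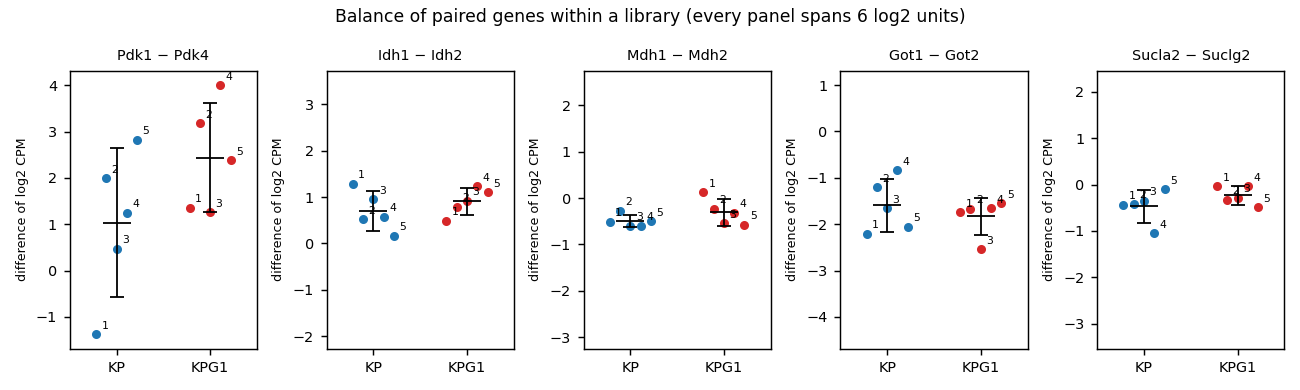
Difference in log2 CPM between the 2 genes of each pair within a library, KP in blue and KPG1 in red, with the replicate number beside each point and the mean ± SD of 5 libraries in black. Every panel spans 6 log2 units. The groups overlap in all 5 pairs, and Pdk1 minus Pdk4 has the widest spread.

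Levels were compared between genes per length, as TPM (counts scaled by gene length and library size) over the union of annotated exons, which understates genes with long exons that are not used. In KP, Me1 was highest of the list at 381 ± 62.4 TPM (SD, n = 5), followed by Idh1 at 320 ± 88.3 and Acly at 290 ± 58.4, neighbours that do not differ beyond their spread. In KPG1 the same 3 genes led, Me1 at 402 ± 67.7, Idh1 at 392 ± 76.8 and Acly at 360 ± 16.9 TPM (SD, n = 5). These are the cytosolic enzymes of NADPH and acetyl-CoA supply. The mitochondrial Sdhd lay close behind Acly in KP, at 283 ± 58.2 TPM (SD, n = 5), so the cut after 3 genes is arbitrary. A processed pseudogene, Gm7049, is 98.5% identical to Me1 over 1638 bases and has no count value, so the Me1 level is uncertain. Of the kinases, Pdk4 had 74.1 ± 98.5 TPM (SD, n = 5) in KP, a mean carried by KP 1, and 20.6 ± 16.7 in KPG1, while Pdk1, Pdk2 and Pdk3 had 35.4 to 42.0 TPM in KP and 39.2 to 48.1 TPM in KPG1. Pdp2 was lowest of the list at 5.29 ± 0.89 TPM in KP and 5.30 ± 1.58 in KPG1 (SD, n = 5).

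Around the list, 57 further genes of the pathway were taken from general knowledge, namely other carriers and enzymes, assembly and lipoylation factors, regulators and genes of the pyruvate branch. Of these, 48 were tested, 0 passed the limma adjusted p of 0.05, and 3 higher and 1 lower had an unadjusted p under 0.05, or 8.33%, less than the 11.6% of all genes tested. The 4 are given as values and not as changes. Slc25a13, an aspartate-glutamate carrier of the malate-aspartate shuttle, lay at 4.85 to 5.04 log2 CPM in KP and 5.03 to 5.53 in KPG1, with a log2 fold change of 0.33 (SE 0.12, p 0.0169, adjusted p 0.320). Ppargc1a, a coactivator of mitochondrial genes, had 0.84 (SE 0.28, p 0.0115, adjusted p 0.282), from 2.28 to 4.08 log2 CPM in KP and 3.78 to 4.40 in KPG1. Acss2, which makes acetyl-CoA from acetate in the cytosol, had 0.59 (SE 0.26, p 0.0442, adjusted p 0.418). Pkm, the pyruvate kinase that makes pyruvate, was fitted lower by -0.38 (SE 0.16, p 0.0367, adjusted p 0.389), at 9.47 to 10.32 log2 CPM in KP and 9.38 to 9.71 in KPG1. The groups overlapped for all 48 genes, where 2.81% of all genes tested showed no overlap. In the list named pyruvate branch (Pkm, Pklr, Ldhd, Slc16a1 and Slc16a3) the log2 fold changes lay between -1.14 and -0.030, and 1 of the 5 genes, Pkm, had an unadjusted p under 0.05. The main lactate dehydrogenase subunits stood in another list, Ldha with -0.22 (SE 0.22, adjusted p 0.740) and Ldhb with 0.40 (SE 0.29, adjusted p 0.625). The 8 assembly and lipoylation factors tested had -0.32 to 0.096.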

How the data were processed

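The study made stranded mRNA libraries from tumour RNA and read each fragment from a single end. Per the labels the authors used bcl2fastq 2.17, cutadapt 1.4.2, HISAT2, featureCounts 1.4.4 and edgeR with mouse build mm10, and the strand setting and annotation release are not given in the sources used here. The deposited values are whole-number counts of reads per gene, not normalized, in a joint table whose 390170 values all equalled those of the single libraries. A deposited table of log2 values was not used. Groups were taken from the sample titles. The tumour-starting alleles shared by both groups are not named here.

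From these counts, filterByExpr of edgeR 4.0.16 kept 16216 genes, and limma 3.58.1 with voom and TMM factors was fitted in R 4.3.3 with genotype as the only term, with 95% intervals from the moderated fit and p-values adjusted by Benjamini-Hochberg over all genes tested. The study's methods use limma-voom but filter on TPM, which was tried as an alternative. Levels are log2 CPM with a prior count of 2, and TPM was computed with exon lengths of GENCODE M21, which held 37607 of 39017 gene IDs. Exact permutation tests used scipy 1.17.1, near-identical copies (at least 95% identity) came from blastn 2.17.0 and figures from matplotlib 3.10.9. DESeq2 1.42.0, edgeR's quasi-likelihood test, other filters and factors, library weights, a block and leaving out libraries were alternatives. The fits and the permutation test were tested on simulated data. Depth was 32427029 to 49534284 counts per library, and reads carried no molecular identifiers, so counting error is a lower bound on technical error.

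The 40 genes, the lists and the tests were chosen with earlier results of these data known. Values in every library are given for genes with an unadjusted p under 0.05 or no overlap between groups, for the 10 genes with the smallest p where those were fewer, for the genes of the 5 pairs and for all 4 kinases. Of the other pathway genes, at most 10 with an unadjusted p under 0.05 or no overlap are named. Ldha, Ldhb, Krt18 and the genes whose upstream sequence is shown were chosen after their values were seen. Of the list, 36 genes had a window in the RefSeq promoter table of GRCm38.p6.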

Additional observations from a re-analysis of the deposited data

Results flagged for a closer look

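In each group of 5 libraries, a library was singled out where its gap to the nearest other library exceeded 0.71 of the range of the group. Of 92 groups searched, 4 held such a library, where chance gives about 1 in 20. Acly in KPG1 1 reached 9.26 log2 CPM, while the remaining KPG1 libraries lay at 9.07 to 9.11 (a gap of 0.77), and Dld in KPG1 1 was at 6.31 against 6.52 to 6.57 (0.812). Sdhb in KPG1 5 was at 5.32 against 5.67 to 5.80 (0.715). Got1 minus Got2 in KPG1 3 was at -2.54 against -1.75 to -1.55 (0.804). The cause of these values was not tested.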

How the results depend on the processing

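Leaving out KP 1 and KPG1 1 together was chosen after seeing the data. Apart from the smaller number of genes or libraries in some fits, the cause was not tested. The count of list genes past the adjusted threshold was 0 under every alternative. At an adjusted p under 0.1 it was also 0 in limma-voom, while DESeq2 gave Mpc2 an adjusted p of 0.0603. The number with an unadjusted p under 0.05, 1 higher and 0 lower in the fit as reported, was 2 higher without the filter on low counts, 4 higher with a weight per library, 2 higher and 1 lower once the sample number entered the fit, 3 higher and 1 lower without KP 1 and KP 5, and 2 higher without KP 1 and KPG1 1. It was 1 lower as well under edgeR and DESeq2 (Pdk4). At a mean TPM of at least 20, where Mpc2, Pdp1, Pdp2 and Me2 were not tested, 0 were higher. Leaving out 1 library gave 1 to 3 higher and 0 to 3 lower, with a change from 1 and 0 without KP 1, KP 2, KP 3, KP 5, KPG1 1 or KPG1 5. In the fit as reported 11.6% of all genes tested had such a p, and this share is not given for the alternatives. These counts are therefore no result about the list. Mpc2 had an unadjusted p of 0.00223 to 0.0349 in every fit that tested it, and its adjusted p ranged from 0.0603 to 0.477. The median log2 fold change of the list ranged from -0.0074 to 0.097. Slc2a1 passed the threshold under DESeq2 (-1.04), with a weight per library (-1.13) and without KP 1 and KP 5 (-1.29), and leaving out 1 library gave -1.14 to -0.92, with a pass without KP 5. The 5 balances kept their direction under every alternative, with adjusted p-values of 0.278 to 0.889.

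Replicate numbers are shared between the groups but mark no shared animal or batch in the labels. Between libraries of the same number, the deviations of log2 CPM from the group means correlated at -0.16 to 0.076. The libraries were therefore not taken as pairs. With replicate block, 1 higher and 1 lower list gene (Pdk4) had an unadjusted p under 0.05, 0 passed after adjustment, and 4 higher and 1 lower of all genes passed against 10 and 18. For the balances 5 pairs cannot give a p under 0.05.

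Directions changed for genes with small differences. Pdk1 was at -0.038 under edgeR, -0.054 under DESeq2, -0.0035 with RLE factors, -0.020 and -0.0071 at a mean CPM and TPM of 20, and -0.45 with the sample number as a covariate. With that covariate Dld was at -0.025, Idh2 at -0.047, Got1 at 0.16 and Suclg2 at -0.016. Sample numbers ran from 6 to 16 in KP and from 1 to 10 in KPG1. That covariate therefore shares much of its variation with genotype, and this fit cannot separate the 2. Pdk1 ranged from -0.12 to 0.17, Suclg2 from -0.056 to 0.096, Got2 from -0.26 to 0.040 and Mdh1 from -0.0059 to 0.14 when 1 library was left out. Without KP 1 and KPG1 1, Mdh1 was at -0.060 and Got2 at 0.065. Over all genes, the number past the threshold moved most under DESeq2 (125 higher, 420 lower), with a weight per library (51 and 177) and without KP 5 (71 and 223).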
